A study of Mus musculus with 6 samples.

Results

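Genes that take fatty acids into the cell, store them in lipid droplets and burn them in mitochondria were followed in lung group 2 innate lymphoid cells (ILC2s), tissue lymphocytes that lack antigen receptors and make type 2 cytokines. The 33 genes were chosen by symbol from the pathway, and all 33 were rows of the deposited table of 18478 genes. The comparison is between 3 WT libraries and 3 libraries labelled CB2 KO, for the knockout of cannabinoid receptor 2, a receptor for endocannabinoids that the gene Cnr2 encodes and immune cells carry. All 6 came from BALB/c mice aged 6 weeks that received 3 intranasal doses of 1 µg recombinant mouse IL-33, the alarmin that activates ILC2s, and the sorted cells then spent 24 h in culture with 10 ng/mL of IL-2 and as much IL-7. The labels state neither how the Cnr2 allele was made nor whether replicates are separate mice. The p-values therefore measure only library-to-library spread, which may be technical.

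A long-chain fatty acid enters a cell through carriers such as CD36, is carried in the cytosol by fatty acid binding proteins, and is trapped as acyl-CoA by acyl-CoA synthetases. It is then either esterified to triglyceride and packed into lipid droplets, from which lipases release it again, or handed to carnitine, moved into the mitochondrion and shortened by beta oxidation. PPAR nuclear receptors sense fatty acids and switch on genes of both branches. Activated lung ILC2s are known for taking up external lipid, keeping it for a time in droplets, and depending on PPARγ and DGAT1 to do so.

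Each library held 17141698 to 21621008 estimated counts. Levels are given as CPM, counts relative to the TMM-scaled library size; a gene with 0 counts could lie at up to 0.14 to 0.174 CPM (3 counts, counting error only). The ILC2 genes Gata3 and Il1rl1 lay between 896 and 1095 CPM in all 6 libraries, and 19 ILC2 markers summed to 17698 to 18923 CPM in WT and 17126 to 19545 CPM in CB2 KO. Without Il5, which was left out after its values were seen (6972 to 7871 CPM in WT, 7888 to 10015 in CB2 KO), the other 18 summed to 10727 to 11053 and 9238 to 9629 CPM, and the groups did not overlap. Of the 19, 15 had negative log2 differences, against 50% of all tested genes. In 9 every CB2 KO library was lower, against 7.18% of all, and in 1 every one was higher, against 6.88%. The part of this in the members' values was not tested. Cnr2 was at 9.32 to 17.4 CPM in WT and at 1.6 to 9.24 CPM in the libraries labelled CB2 KO, replicate 1 being the highest of these and level with the lowest WT library; replicates are named by their labels here. That library was also far from the other 5 on the leading principal component, which held 37.8% of the variance, so leading values are given without it too.

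The 33 members together came to 0.351 to 0.36% of the TMM-scaled library size in WT and 0.363 to 0.382% in CB2 KO. Plin2 alone held 14.3 to 16.8% of the member CPM in WT and 20.9 to 22.1% in CB2 KO. Without it, a sum made after the values were seen, the other 32 held 2982 to 3061 CPM in WT and 2824 to 2993 CPM in CB2 KO, so the CB2 KO libraries were then the lower ones, with overlap. Genes were compared per kilobase of exon, with the exons of all annotated transcripts of a gene pooled. The pooled length can exceed that of the transcript made (for Fabp5 it is 3567 nt), so ranks and shares within families are approximate. On this scale the lipid droplet coat gene Plin2 was the most abundant member, at 156 ± 13.9 CPM per kilobase in WT (SD, n = 3). Next to it was Etfb, a subunit of the electron transfer flavoprotein, at 154 ± 18.0. These neighbours did not differ beyond their spread in WT. Pparg (88.1 ± 6.6) and Acadl, the long-chain acyl-CoA dehydrogenase gene (91.3 ± 8.17), came next, again within their spread. At the other end were Lpl at 0.241 ± 0.255, Ppard at 0.168 ± 0.214 and Fabp4, which had 0 counts in the 3 WT libraries.

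**Figure D1:**
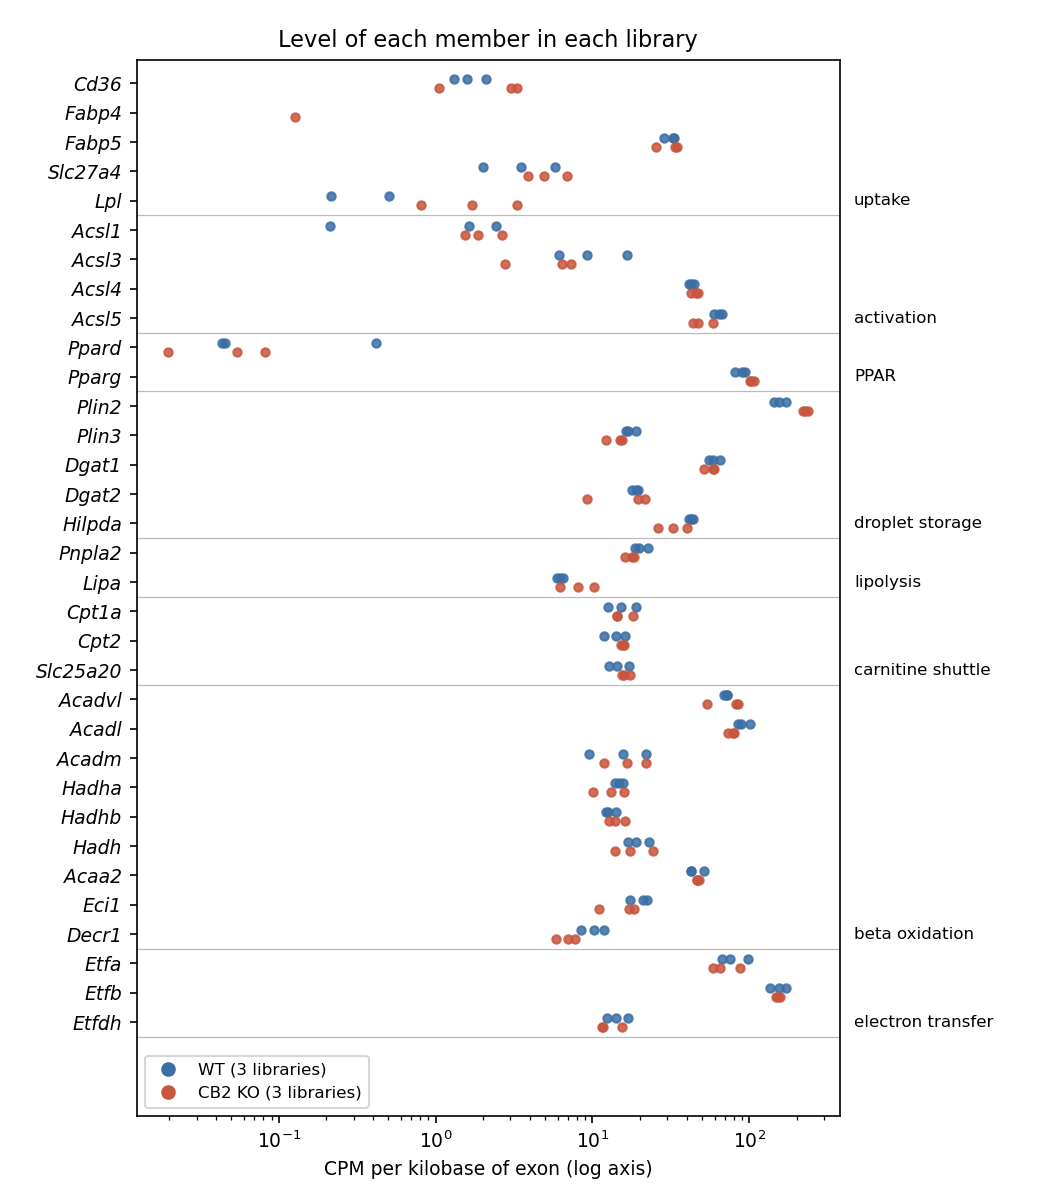
Level of the 33 members in each library, in CPM per kilobase of exon on a log axis, with 1 point per library (blue, 3 WT libraries; red, 3 CB2 KO libraries); libraries at 0 are not drawn (5 for Fabp4 and WT replicate 1 for Lpl). Members range from Plin2, at a mean of 228 in CB2 KO, down to Ppard and Fabp4, and within the uptake and PPAR roles the highest and lowest members are more than 100 times apart.

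Of the 33 members, 31 passed the filter on low counts and were tested; Fabp4 and Ppard did not. None of the 31 (0) reached an adjusted p of 0.05 in the quasi-likelihood (QL) test of edgeR, whose p-values were adjusted by the Benjamini-Hochberg method over all 14084 tested genes. Over all genes 0.107% were called, 0.0426% higher and 0.0639% lower in CB2 KO. DESeq2 on the same counts called 1 member, Plin2, against 2.58% of all genes. The QL test restricted to genes averaging 100 or more counts also called 1 member, again Plin2, against 0.333% of genes. At an unadjusted p under 0.05, edgeR listed 6 of the 31, against 8.6% of all tested genes: 3 were higher (4.33% of all) and 3 lower (4.27% of all). The median log2 difference of the 31 was -0.0004, with 15 positive and 16 negative, beside -0.0003 over all tested genes, 50% of which were negative. In 9 of the 31 the groups did not overlap, against 14.1% of all tested genes. Of these, 3 (Plin2, Pparg and Lpl) were higher in every CB2 KO library, against 6.88% of all genes, and 6 (Acsl5, Plin3, Hilpda, Pnpla2, Acadl and Decr1) were lower in every one, against 7.18%. With the library labelled CB2 KO replicate 1 left out, 4 of the same 31 had an unadjusted p under 0.05, against 8.08% of all genes tested then. These were Plin2, Lpl, Lipa and Acadvl, all with positive log2 differences. Of the 6 listed with all libraries, Pparg, Acsl5, Acadl and Decr1 were no longer among them.

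**Figure D2:**
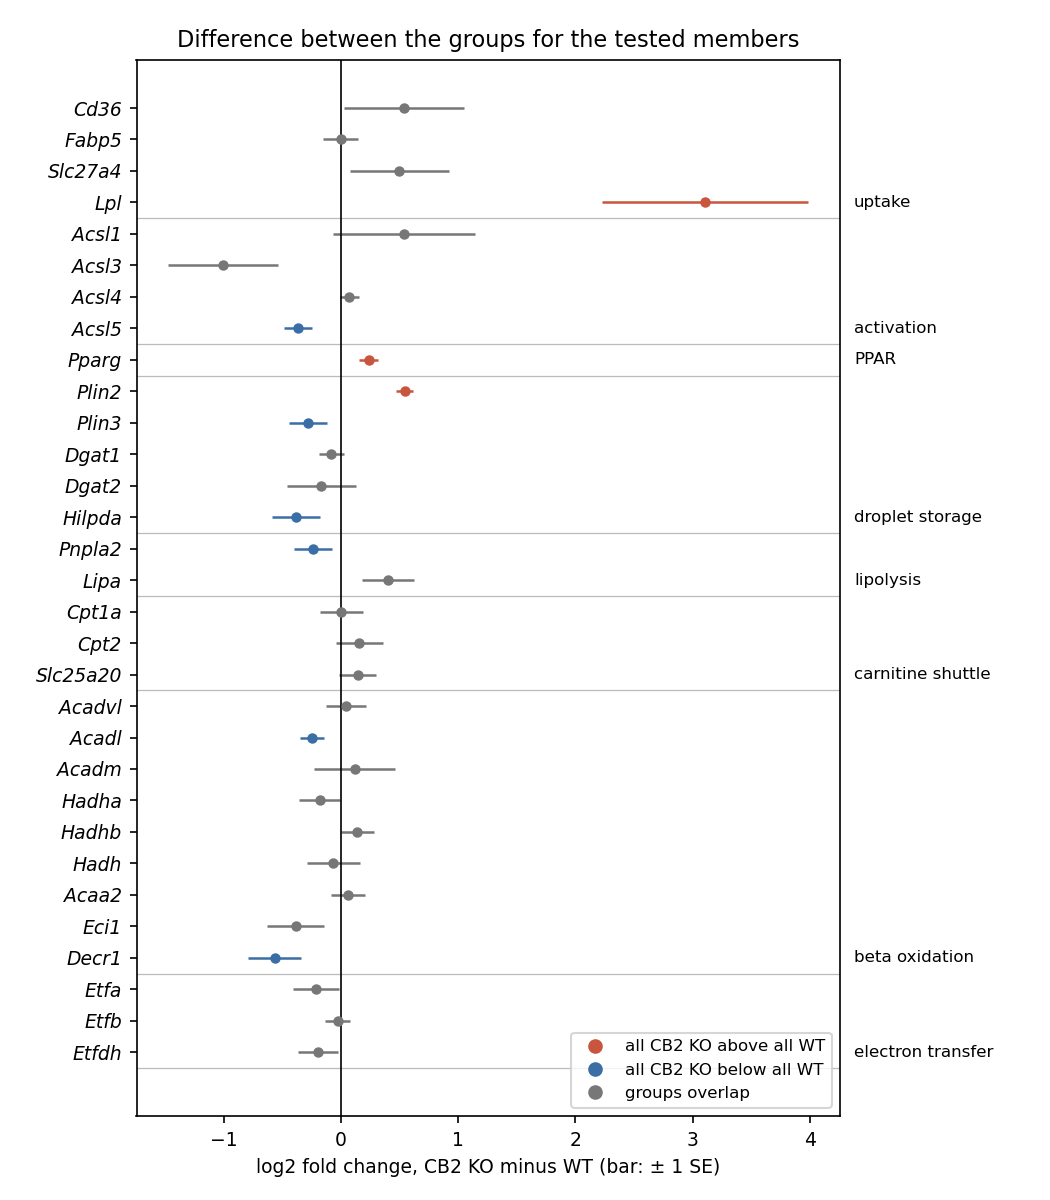
Log2 fold change of the 31 tested members, CB2 KO minus WT, by role, with bars of 1 SE from edgeR's fit over 3 libraries a group; colour marks members whose groups do not overlap (3 higher in red, 6 lower in blue). Most lie within 0.5 of 0, Lpl is far to the right with a wide bar, and Plin2 is the member farthest from 0 in units of its own SE.

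The member with the smallest p-value was a droplet storage gene. Plin2 encodes perilipin 2, the coat protein that covers and stabilises lipid droplets outside fat tissue (chromosome 4, 86648386 to 86670060, minus strand, mm10). It was at 542, 599.8 and 503 CPM in WT replicates 1 to 3 and at 801, 770.1 and 832 CPM in CB2 KO replicates 1 to 3. All CB2 KO libraries exceeded all WT libraries, and the gap between the groups was wider than the spread within either. The means were 548 ± 48.8 and 801 ± 30.7 CPM (SD, n = 3 each), 1.46-fold, with a log2 difference of 0.54 (SE 0.08). Its transcript shares 90.1% of 416 nt with Gm12551, which is not analysed here, so reads of the 2 could be mixed. Plin2 missed the threshold (edgeR QL, Benjamini-Hochberg adjusted p = 0.0731). Over 16 alternatives its log2 difference ran from 0.49 to 0.61 and the adjusted p from 4e-11 (DESeq2) to 0.504 (edgeR with the replicate block). Leaving out the library labelled CB2 KO replicate 1 gave 0.55 (edgeR QL adjusted p = 0.236). Permuting the CPM over libraries gave an exact two-sided p of 0.1, and no smaller p is possible with 3 against 3.

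Plin2 lies on the chromosome of Cnr2, 49.2 Mb away, as do Cpt2 (28.0 Mb) and Decr1 (120 Mb). Of the 37 tested genes starting within 10 Mb of the Plin2 start, 2 had an unadjusted p under 0.05 in edgeR's test (5.41%) and 0 were called. Plin2 itself is among the 37 and among the 2. On all of chromosome 4, 10.3% of the 874 tested genes had such a p, against 8.6% of all 14084 tested genes. Of the 15 genes called in the whole fit, 7 lie on chromosome 4. The part of chromosomal position in the difference of Plin2 was not tested. In bulk RNA, fewer cells of a type and less RNA per cell cannot be told apart. Macrophages also express Plin2, Pparg, Lpl and Cd36. Of 20 macrophage and monocyte marker genes listed, 10 were rows of the table and the others were not analysed here. The 10 summed to 14.4 to 59.2 CPM in WT and 150.2 to 176 CPM in CB2 KO. Chil3 alone was at 0.559, 8.68 and 47.5 CPM in WT and at 108 to 143 CPM in CB2 KO. Of the 4 tested, 4 had positive log2 differences. In 2, Chil3 and Lyz2, every CB2 KO library was higher, against 6.88% of all tested genes. Cd68 was at 10.4, 6.58 and 9.11 CPM in WT and at 9.59, 12.7 and 6.57 CPM in CB2 KO, with overlapping groups. Cd14 had counts in WT replicate 1 only. Of these 10, 5 were at 0 in every WT library. Mrc1, the mannose receptor gene, and Csf1r were at 0 in CB2 KO replicate 1, and Mrc1 was at 0 in replicate 3 too. The part of these cells in the difference of Plin2 was not tested.

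For the other perilipin of the list the CB2 KO values were the lower ones. Plin3, whose product coats small, newly formed droplets, was at 71.7, 61.8 and 63.7 CPM in WT and at 56.7, 58.7 and 46.5 CPM in CB2 KO, and the groups did not overlap. Its log2 difference of -0.28 (SE 0.16) did not pass (edgeR QL adjusted p = 0.687). Per kilobase, Plin2 made up 89.9 ± 1.17% of the Plin2 and Plin3 level in WT and 94.1 ± 0.868% in CB2 KO (SD, n = 3 each).

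The sequences before the RefSeq starts of these 2 genes are shown. The pair was chosen because the products share a role and Plin2 was higher, and Plin3 lower, in every CB2 KO library. The sequences were taken from RefSeq promoters on GRCm38.p6 (the mm10 build), which held 26 of the 33 members, 30 promoters in all. Each was searched over 250 bases before the start, on both strands, for the PPAR response element, the unit AGGTCA followed by any 1 base and AGGTCA again (TGACCT in place of AGGTCA on the reverse strand), with up to 2 mismatches. Capitals mark the match. The Plin2 stretch is chr4:86670061-86670309 on the minus strand, and its match, at chr4:86670272-86670284, has 2 mismatches and begins 225 bases before the start. The Plin3 stretch is chr17:56290512-56290761 on the minus strand and holds no match. It lies inside the annotated span of the gene, chr17:56277476-56292873, so it is not upstream of the whole gene.
Plin2: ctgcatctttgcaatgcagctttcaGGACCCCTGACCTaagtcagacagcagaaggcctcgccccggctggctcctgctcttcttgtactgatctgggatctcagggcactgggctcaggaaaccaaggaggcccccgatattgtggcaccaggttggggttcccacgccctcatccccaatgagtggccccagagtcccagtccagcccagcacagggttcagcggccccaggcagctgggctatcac
Plin3: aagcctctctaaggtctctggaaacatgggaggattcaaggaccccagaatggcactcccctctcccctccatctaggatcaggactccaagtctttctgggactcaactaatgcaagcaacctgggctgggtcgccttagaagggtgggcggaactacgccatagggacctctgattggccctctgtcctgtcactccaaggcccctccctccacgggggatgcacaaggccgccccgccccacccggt

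A match of this kind was found in 3 of the 30 member promoters (10.0%) and in 3.24% of all 32851 promoters of the same length. The other matches were TGGCCTCTGACTT before Cd36 (chr5:17835947-17835959) and TTACCTTTGCCCT before Etfa (chr9:55512308-55512320), each with 2 mismatches. The groups overlapped for both of these genes. The start used for Cd36 matched no annotated transcript and lies inside the annotated span of the gene, chr5:17781690-17888801. AGGTCA alone, which the full element includes, occurred in 7 of the 30 (23.3%), against 14.0% of all promoters. These are matches of letters, and binding was not measured.

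Hilpda encodes a small droplet protein, induced by hypoxia and lipid, that inhibits the lipase ATGL. It was at 46.7, 45.8 and 48.5 CPM in WT and at 36.2, 28.8 and 44.5 CPM in CB2 KO. All CB2 KO libraries were below all WT libraries, but they differed among themselves far more than the WT libraries did (SD 7.85 against 1.36 CPM). The log2 difference was -0.38 (SE 0.21), or -0.23 with CB2 KO replicate 2 left out. The acyltransferases of the last step of triglyceride synthesis, Dgat1 and Dgat2, had overlapping groups. Of the 5 storage genes Plin2 alone had a positive log2 difference (median -0.17). Dgat1, the enzyme tied to ILC2 droplets, was at 198, 169.8 and 180.2 CPM in WT and at 157, 182 and 180.1 CPM in CB2 KO, and the groups overlapped. Dgat2 was at 55.3, 60.4 and 58.2 CPM in WT and at 28.3, 66.6 and 60.2 CPM in CB2 KO. The low value is that of the library labelled CB2 KO replicate 1; when this was left out, the log2 difference of Dgat2 turned from -0.17 to 0.14. Dgat1 made up 76.0 ± 2.2% of the Dgat1 and Dgat2 level per kilobase in WT and 77.8 ± 6.15% in CB2 KO.

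Of the 2 PPAR genes, Pparg was strongly expressed and Ppard barely detected. Pparg encodes PPARγ, the receptor that directs lipid storage. It was at 238, 275 and 267 CPM in WT and at 316, 299 and 303 CPM in CB2 KO. The 3 CB2 KO libraries lay close together and above all WT libraries. The log2 difference was 0.24 (SE 0.08) and did not pass (edgeR QL adjusted p = 0.482). It was 0.21 when the library labelled CB2 KO replicate 1 was left out. Ppard, the gene of PPARδ, had 7, 7 and 55 counts in WT and 3, 13 and 7 in CB2 KO. Only WT replicate 3 was above 1 CPM, and Ppard was removed by the filter.

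**Figure D3:**
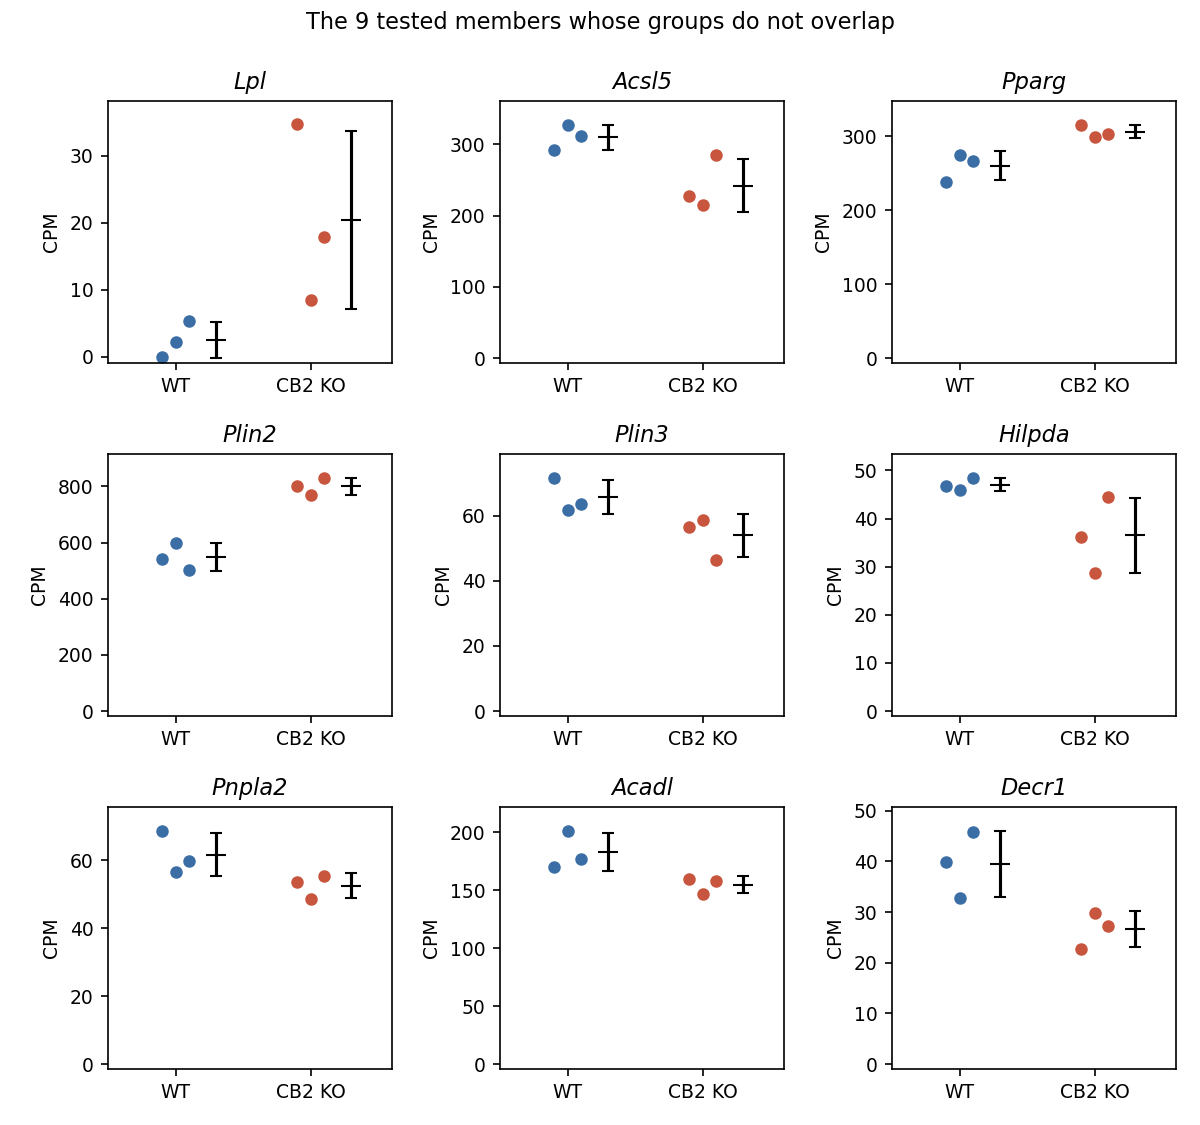
CPM of the 9 tested members whose groups do not overlap, with 1 point per library (3 WT in blue, 3 CB2 KO in red) and the mean ± SD in black beside each group. Plin2 and Pparg have tight groups, whereas the CB2 KO points of Lpl and Hilpda are widely spread.

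Of the 5 uptake genes 4 were tested, 3 with a positive log2 difference and 1 with a negative one (median 0.52). The cytosolic carrier Fabp5 was the most abundant of them, and its groups overlapped. Fabp5 was at 118, 102 and 116 CPM in WT and at 124, 119 and 90.3 CPM in CB2 KO. Its log2 difference was -0.00044 (SE 0.15). Its counts are uncertain, because transcripts of 5 other genes share at least 90% of 200 or more bases with it, led by Gm6166 (98.3% of 409 nt), itself at a mean of 21.5 CPM. Fabp4, the carrier of adipocytes and macrophages, had 12 counts in CB2 KO replicate 2 and 0 in the other 5 libraries.

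Lpl, the secreted lipase that frees fatty acids from lipoproteins for uptake, showed the largest log2 difference of the tested members. It had 0, 46 and 94 counts in WT (0, 2.24 and 5.32 CPM) and 698, 180 and 309 counts in CB2 KO (34.7, 8.49 and 18.0 CPM). The lowest CB2 KO library exceeded the highest WT library, and CB2 KO replicate 1 was the highest. Its log2 difference was 3.11, with an SE of 0.88, and missed the threshold (edgeR QL adjusted p = 0.393). With the library labelled CB2 KO replicate 1 left out, it was 2.44, and over all alternatives it ran from 2.44 to 4.9. Beside it, the macrophage and monocyte marker sums given above were also higher in every CB2 KO library. So were the sums of 9 mast cell and basophil markers in the table, of 10 listed, at 25.9 to 49.4 CPM in WT and 61.0 to 117 CPM in CB2 KO; Mcpt4 was at 0 in 4 of the 6 libraries and Ms4a2 in 5. None of the 8 adipocyte markers listed, such as Adipoq, was a row of the table. The part of these cells in the difference of Lpl was not tested.

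Cd36, the scavenger receptor that takes up fatty acids and oxidised lipoproteins, was at 4.71, 5.71 and 7.53 CPM in WT and at 10.8, 3.77 and 11.8 CPM in CB2 KO. CB2 KO replicate 2 was below all WT libraries and the other two were above them. Slc27a4, the gene of fatty acid transport protein 4, was at 8.8, 25.5 and 15.6 CPM in WT and at 21.7, 30.3 and 17.0 CPM in CB2 KO, with overlapping groups.

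**Figure D4:**
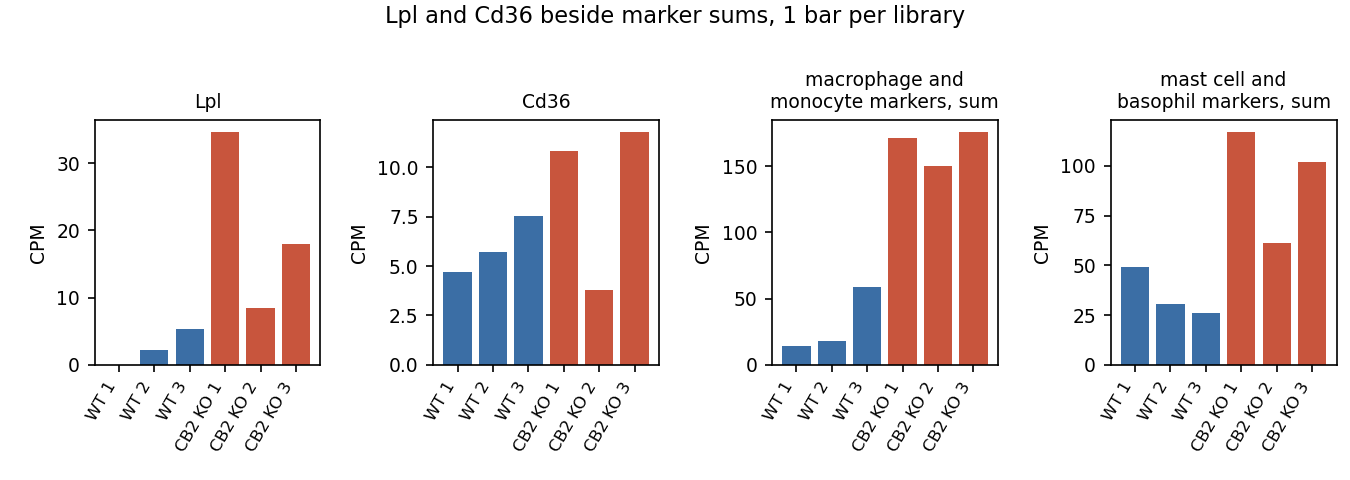
Bars give CPM in each of the 6 libraries for Lpl, Cd36 and the summed markers of macrophages and monocytes (10 genes) and of mast cells and basophils (9 genes). Lpl and both marker sums are higher in all 3 CB2 KO libraries than in any WT library, and Cd36 is not.

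The acyl-CoA synthetases, which activate fatty acids for both storage and oxidation, were mainly Acsl5 and Acsl4; of the 4, 2 had positive and 2 negative log2 differences (median -0.15). Acsl5, found on mitochondria and the endoplasmic reticulum, was at 292, 327 and 312 CPM in WT and at 228, 214 and 285 CPM in CB2 KO. All CB2 KO libraries were below all WT libraries, replicate 3 only just. Its log2 difference was -0.36 (SE 0.12), or -0.32 with the library labelled CB2 KO replicate 1 left out, and did not pass (edgeR QL adjusted p = 0.462). Acsl4, which prefers arachidonic acid and other polyunsaturated fatty acids, was at 231, 241 and 225 CPM in WT and at 248, 253 and 230.05 CPM in CB2 KO. Per kilobase, Acsl4 made up 36.2 ± 0.464% of the level of the 4 synthetases in WT and 44.3 ± 4.92% in CB2 KO, and Acsl5 53.7 ± 3.19% and 48.5 ± 4.3%. Acsl3, which sits on nascent droplets, was at 72.0, 40.01 and 26.7 CPM in WT and at 12.0, 27.7 and 31.9 CPM in CB2 KO. The highest and lowest of these values are WT replicate 1 and CB2 KO replicate 1, and the groups overlapped. The log2 difference of Acsl3 was -1.003 (SE 0.47), and -0.52 with WT replicate 1 left out. Acsl1 was at 2.21 CPM in WT replicate 1 and between 16.2 and 27.9 CPM in the other 5 libraries. Without WT replicate 1 its log2 difference turned from 0.54 to -0.02. Exons of Acsl5 overlap the opposite-strand gene Zdhhc6, and exons of Acsl3 overlap Utp14b, so these counts are uncertain.

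The lipases of the list act at different places. Pnpla2 encodes ATGL, which opens triglyceride breakdown at the droplet surface. It was at 68.8, 56.4 and 59.8 CPM in WT and at 53.7, 48.5 and 55.5 CPM in CB2 KO. The groups were separate by less than 1 CPM, and the log2 difference was -0.24 (SE 0.16). Lipa, the lysosomal acid lipase gene, was at 43.7, 40.4 and 41.8 CPM in WT and at 42.1, 69.4 and 54.6 CPM in CB2 KO. Its WT libraries lay within 4 CPM of each other, and replicates 2 and 3 of CB2 KO were above them. The log2 difference of Lipa was 0.40 (SE 0.22), or 0.58 with the library labelled CB2 KO replicate 1 left out and 0.19 with CB2 KO replicate 2, the highest, left out. Neither gene passed (edgeR QL adjusted p = 0.734 for Pnpla2 and 0.669 for Lipa).

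The 15 genes of mitochondrial oxidation, from the carnitine shuttle to electron transfer, had a median log2 difference of -0.02, with 7 positive and 8 negative. Cpt1a, the rate-limiting acyltransferase of the outer mitochondrial membrane, was at 144, 95.5 and 117 CPM in WT and at 109, 138 and 109.9 CPM in CB2 KO. The log2 difference was 0.004 (SE 0.18), smaller than the spread within either group. Cpt2, its partner in the inner membrane, was at 33.7 ± 5.19 CPM in WT and 37.3 ± 0.965 in CB2 KO, and the carrier Slc25a20 at 71.3 ± 10.4 and 78.9 ± 5.1 CPM (SD, n = 3 each). All 3 log2 differences were between 0 and 0.16, and all 3 genes had overlapping groups.

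The 9 genes of the beta oxidation cycle had log2 differences from -0.56 to 0.14, with 4 positive and 5 negative. Acadl, the long-chain dehydrogenase of the cycle's opening step, was at 170.3, 201 and 177 CPM in WT and at 160.1, 147 and 158 CPM in CB2 KO. The groups did not overlap, and the log2 difference was -0.24 (SE 0.10). Decr1, the 2,4-dienoyl-CoA reductase needed for polyunsaturated fatty acids, was at 39.9, 32.8 and 45.9 CPM in WT and at 22.8, 29.8 and 27.2 CPM in CB2 KO. It was lower in every CB2 KO library, with a log2 difference of -0.56 (SE 0.23). Neither passed (edgeR QL adjusted p = 0.58 for Acadl and 0.562 for Decr1). Leaving out the library labelled CB2 KO replicate 1 gave -0.27 and -0.45.

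Eci1, the isomerase for unsaturated chains, was at 47.6, 37.1 and 44.4 CPM in WT and at 23.4, 39.3 and 36.3 CPM in CB2 KO. The library labelled CB2 KO replicate 1 alone lay clearly apart; when it was left out, the log2 difference went from -0.38 to -0.18. Acadvl, the very long-chain dehydrogenase, was at 191 ± 5.08 CPM in WT and 197 ± 46.0 in CB2 KO, where replicate 1 was at 144 and the others above 221. Its log2 difference was 0.04 (SE 0.17), and 0.23 with CB2 KO replicate 1 left out (edgeR QL adjusted p = 0.574). Acadm, the medium-chain dehydrogenase, varied more within groups than between them, from 37.0 to 86.0 CPM in WT and from 46.1 to 86.2 in CB2 KO. Hadh and Acaa2, which act on shorter chains and in the last cleavage, were at 97.7 ± 15.5 and 68.7 ± 7.75 CPM in WT and at 92.3 ± 26.3 and 71.2 ± 1.01 CPM in CB2 KO. Acadvl shares exon sequence with Dvl2 on the opposite strand, and Acadm shares 93.5% of 681 nt with Gm5131, so both are uncertain.

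Hadha and Hadhb encode the 2 subunits of the mitochondrial trifunctional protein, which carries out the later steps for long chains. Their RefSeq starts lie head to head on chromosome 5, with 272 bases between 30154980 (Hadha, minus strand) and 30155253 (Hadhb, plus strand). The part of this gap outside annotated exons, chr5:30155163-30155247 on the plus strand, is shown because both genes start from it, and it holds no PPAR element match.
Hadha and Hadhb: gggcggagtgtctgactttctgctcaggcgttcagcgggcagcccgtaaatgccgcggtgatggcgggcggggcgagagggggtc
Hadha was at 122, 137 and 128 CPM in WT and at 139.5, 88.4 and 114 CPM in CB2 KO. Hadhb was at 80.7, 82.6 and 93.1 CPM in WT and at 106, 83.5 and 92.3 CPM in CB2 KO. In CB2 KO both were highest in replicate 1 and lowest in replicate 2, and the groups overlapped for both. Their log2 differences were -0.18 (SE 0.17) and 0.14 (SE 0.14). With the library labelled CB2 KO replicate 1 left out, they were -0.36 and 0.04. Hadhb shares 99.8% of 1428 nt with Gm13910, which is not analysed here, and 97.6% of 1426 nt with Gm9108, at 0.139 CPM, so its counts are uncertain.

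The electron transfer flavoprotein hands electrons from the dehydrogenases to the respiratory chain. Etfa was at 180, 139 and 124 CPM in WT and at 107, 119 and 161 CPM in CB2 KO. Etfdh, the membrane oxidoreductase that takes them over, was at 126, 106 and 93.2 CPM in WT and at 86.1, 87.1 and 115 CPM in CB2 KO. In both genes WT replicate 1 was the highest library, CB2 KO replicate 3 was above the other CB2 KO libraries, and the groups overlapped. Etfb was at 179.8 ± 20.9 CPM in WT and 177 ± 4.13 in CB2 KO (SD, n = 3 each). The log2 differences were -0.21 (SE 0.20), -0.19 (SE 0.17) and -0.02 (SE 0.11) for Etfa, Etfdh and Etfb. Exons of Etfdh overlap 4930579G24Rik on the opposite strand and Etfa shares 93.4% of 486 nt with Gm15285. Etfb shares 99.7% of 626 nt with Gm45233, an overlapping gene on its own strand that is not analysed here. The counts of all 3 are therefore uncertain.

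**Figure D5:**
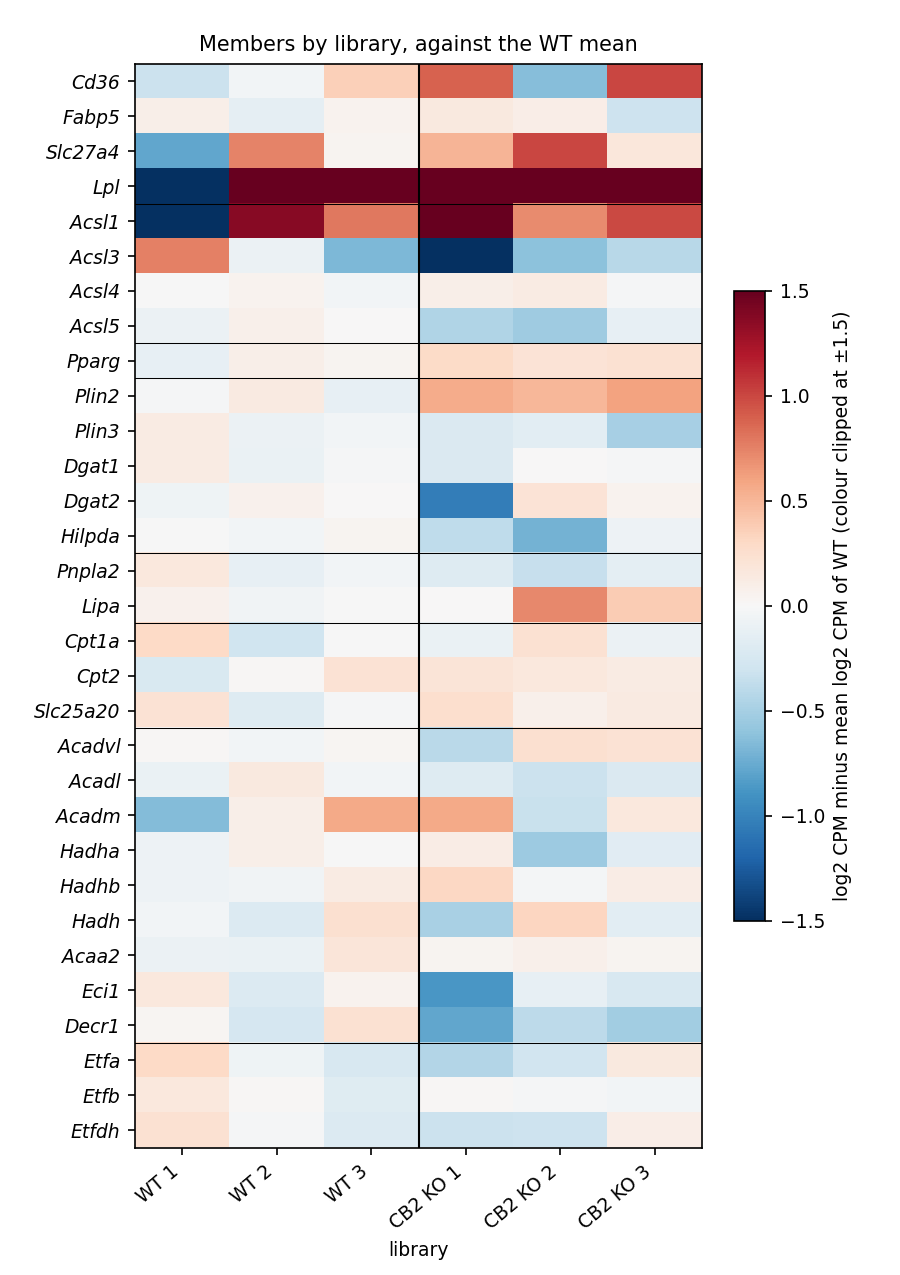
Log2 CPM of the 31 tested members in each of the 6 libraries, minus the mean of the 3 WT libraries, grouped by role; colours are clipped at 1.5, and the row of Lpl is clipped throughout because WT replicate 1 is at 0. Plin2 and Pparg, and on the lower side Acsl5 and Acadl, are among the rows with a single colour over all 3 CB2 KO libraries. Dgat2, Eci1 and Acsl3 are darkest in CB2 KO replicate 1.

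Other genes of the pathway, 120 from a list that left out the members, were read in the same fit. Of these, 92 were rows of the table and 84 were tested, and edgeR's QL test called 0 of them. DESeq2 called 2 of the 84, Lrp1 (higher) and Ucp2 (lower), against its 2.58% of all genes, and limma-voom called 0. Lrp1, at 0 in WT, passed the filter on low counts only through its CB2 KO counts. At an unadjusted p under 0.05 there were 10 of the 84, 5 higher and 5 lower, and the groups did not overlap in 15, against the 8.6% and 14.1% of all tested genes given above. Their median log2 difference was -0.0026.

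Among genes of lipid entry, Dbi, the acyl-CoA binding protein, was at 202 ± 16.7 CPM in WT and 173 ± 14.4 in CB2 KO (SD, n = 3 each). Lrp1, a lipoprotein receptor abundant in macrophages, had 0 counts in WT and was at 10.6, 1.7 and 4.71 CPM in CB2 KO. Its CB2 KO mean, 5.66 ± 4.52 CPM, was 37.3-fold the limit of 3 counts per WT library. This figure leaves out the spread in CB2 KO. With the library labelled CB2 KO replicate 1 left out, it was 21.1-fold. The macrophage marker sums given above lay on the same side, and their part in this was not tested. Of the PPAR partners and targets, Ucp2, a mitochondrial carrier, was at 1312, 1429.7 and 1332 CPM in WT and at 1189, 1182 and 1155 CPM in CB2 KO. The groups were well apart, and the log2 difference was -0.21 (SE 0.05; edgeR QL adjusted p = 0.324). Angptl4, an inhibitor of lipoprotein lipase, was at 11.9 ± 1.16 and 7.39 ± 3.87 CPM, the coactivator Ncoa1 at 71.8 ± 18.9 and 49.7 ± 14.6 CPM, the PPAR partner Rxra at 19.6 ± 4.34 and 22.5 ± 6.13 CPM and Ppargc1b at 5.67 ± 1.62 and 3.43 ± 3.15 CPM. Pdk4, which spares glucose when fat is burned, had 0 counts in 5 libraries.

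In triglyceride synthesis, Agpat5 was at 157 ± 7.79 and 129 ± 8.13 CPM and Agpat2 at 32.1 ± 2.57 and 20.9 ± 5.86 CPM (WT and CB2 KO, SD, n = 3 each), with every CB2 KO library below every WT library in both. Of the same family Agpat4, named after its values were seen, was higher in every CB2 KO library, at 36.9 ± 2.4 and 44.3 ± 3.59 CPM. Gpat3, which makes the first acylated intermediate, was at 3.87, 3.61 and 9.38 CPM in WT and at 28.0, 15.7 and 8.48 CPM in CB2 KO. In lipolysis, Abhd5, the activator of ATGL, was at 18.7 ± 13.3 and 32.6 ± 6.5 CPM and the monoacylglycerol lipase gene Abhd6 at 15.8 ± 4.87 and 22.1 ± 1.72 CPM. The lysosomal regulator Tfeb was at 26.0 ± 4.1 and 16.9 ± 6.51 CPM, Lipe, the hormone-sensitive lipase, at 20.9 ± 10.9 and 16.9 ± 4.26 CPM and Mgll at 8.37 ± 1.81 and 8.75 ± 2.04 CPM.

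In oxidation outside the member list, Ehhadh, the bifunctional enzyme of peroxisomes, was at 5.54, 2.97 and 9.11 CPM in WT and at 17.9, 21.1 and 9.77 CPM in CB2 KO, with replicate 3 only just above the WT libraries. Scp2, the peroxisomal thiolase and sterol carrier, was at 170 ± 9.66 and 141 ± 8.1 CPM, lower in every CB2 KO library. The short-chain dehydrogenase gene Acads was at 40.6 ± 6.86 and 40.8 ± 4.47 CPM. Acad10 was at 14.2, 5.97 and 0.057 CPM in WT and at most at 0.745 CPM in CB2 KO, so WT replicate 3 lay with the CB2 KO libraries.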

How the data were processed

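Groups and replicate numbers came from the sample titles. The authors deposited estimated counts per gene, which Partek's E/M quantification produced per the file names. The submitters' processing notes name Partek, the build mm10, CASAVA (1.8.2) and STAR (3.5.3, as written there). Whether counting used strand is not given. The authors also deposited a normalized signal, in which each count has 1 added and is scaled by 1 factor for each library.

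Estimated counts were rounded and tested with edgeR 4.0.16 in R 4.3.3 (TMM factors; filterByExpr; glmQLFit, robust and with legacy=FALSE; then glmQLFTest), using Benjamini-Hochberg adjustment over the 14084 genes kept (4394 removed). CPM used unrounded counts and TMM library sizes. SE is the log2 difference divided by the root of F. Alternatives used DESeq2 1.42.0 and limma 3.58.1. The workflow was tested on simulated data. It called 18 of 94 genes changed 2-fold, 57 of 93 changed 4-fold and 10 of 13196 unchanged genes. A gene that was not called may therefore still differ. Gene spans and exon lengths came from GENCODE M21, whose span of all 33 members equals the deposited one after 1 is taken from each deposited stop; similar transcripts were searched with blastn 2.17.0 (at least 90% over 200 nt). All 33 members are named. Of other pathway genes, those with the 3 smallest p per class and a mean CPM of at least 1 are named, plus 10 fixed genes, of which Ppara was not analysed here. Some genes that this rule selects are not reported here. The members and lists were chosen with earlier results of these data known.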

Additional observations from a re-analysis of the deposited data

How the results depend on the processing

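With edgeR's quasi-likelihood test as reported, 0 of 31 members and 15 genes passed. DESeq2 called 363 genes and 1 member (Plin2), and edgeR on genes averaging 100 or more counts called 35 genes, 0.333% of those tested, and 1 member (Plin2, adjusted p = 0.0292). The authors' normalized signal gave 23 genes, 0 members and a member median of -0.0279. Leaving out each library in turn gave 3 (WT replicate 2 or CB2 KO replicate 3) to 8 (CB2 KO replicate 1) genes, 0 members and member medians from -0.068 to 0.0422. The replicate block left 3 genes, 0 members. The replicate numbers share only a number: same-numbered libraries deviated with correlations of 0.086, 0.0322 and 0.024, and not every library correlated best with its own number.

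Of 496 member values under 16 alternatives, 19 changed sign and 2 (both Plin2) passed the threshold. Fabp5 turned to 0.0095 with RLE size factors, 0.0108 with upper-quartile factors and 0.0239 with library size alone, and Cpt1a to -0.0012 with the normalized signal. Leaving out 1 library turned Fabp5 (-0.0801 to 0.1167 over the 6 fits), Acsl1 (-0.0248 to 1.24), Dgat2 (-0.42 to 0.14), Cpt1a (-0.14 to 0.17), Acadvl (-0.0753 to 0.23), Acadm (-0.16 to 0.42), Hadh (-0.33 to 0.11) and Etfb (-0.10 to 0.057). The cause was not tested. At these depths Fabp4 in 5 libraries and Lpl in WT replicate 1 had 0 counts, so their levels there are known only as limits.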
